A study of Danio rerio with 12 samples.

Results

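The regions described here are stretches of open chromatin that trunk osteoblasts held and that no other sorted skeletal population of the zebrafish held. ATAC-seq finds such chromatin by where a transposase can cut, and a summit is the position where the signal of a called peak is highest. Summits of the 12 lists were joined whenever they lay no more than 250 bp apart, which gave 133213 regions. Each list was then reduced to its strongest 8407 summits, the length of the shortest list, and these are called kept summits. A group held a region when at least 2 of its 3 libraries had a kept summit in it. By this rule 1018 regions were held by trunk osteoblasts alone. They made up 7.52% of the 13540 regions held by at least 1 group, and 0.764% of all regions. The regions were chosen by the rank of their summits in these same lists, so their presence and rank in the lists are given as a description and carry no test.

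Osteoblasts build bone matrix, and the ectonucleotidase encoded by entpd5a is needed for its mineralisation in the zebrafish. In the zebrafish trunk the first mineralised rings of the spine form in the sheath of the notochord, whose cells express entpd5a, whereas bones of the skull form from osteoblasts outside a notochord. Open chromatin away from gene starts often marks enhancers, DNA elements whose accessibility differs between cell types more than that of promoters does.

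Cells came from wild-type fish at 15 days post fertilisation, all of which carried entpd5a:Gal4FF;UAS:GFP and R2col2a1a:mCherry. Both osteoblast groups were sorted as cells with GFP and without mCherry, so the entpd5a reporter and not a wider set of bone genes defined them. Both chondrocyte groups, the cells of cartilage, were sorted as cells with mCherry, driven by a col2a1a enhancer, and without GFP. The 4 groups of 3 libraries were trunk osteoblasts, labelled non-classical, head osteoblasts, labelled classical, trunk chondrocytes, taken from between the segments of the spine, and head chondrocytes. Genes next to the summits were not analysed here, so neither the sorted identity nor the name of any gene near a region was checked.

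The lists differed in length in a way that crosses the groups. Trunk osteoblast lists held 20380, 24798 and 64219 summits in replicates 1, 2 and 3, head osteoblast lists 28911, 78652 and 60979, trunk chondrocyte lists 27334, 55274 and 8407, and head chondrocyte lists 79517, 51158 and 46446. The score at the last kept summit, a −log10 p-value or q-value of the peak caller, ranged from 1.31 in trunk chondrocyte replicate 3 to 172 in head chondrocyte replicate 1. Replicate 1 of trunk osteoblasts, of head osteoblasts and of trunk chondrocytes are the 3 libraries labelled as having lost files. Read counts were not used here, so depth is known only through list length.

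Most of the regions rested on 2 trunk osteoblast libraries and not on all 3. A kept summit was present in all 3 libraries for 310 regions (30.5%) and in exactly 2 for 708. Replicates 1 and 2 together, without replicate 3, held 373, replicates 2 and 3 without replicate 1 held 210, and replicates 1 and 3 without replicate 2 held 125. Of the 708 regions, 643 (90.8%) still had a summit in the full list of the third library. In all, 808 of the 1018 regions had a kept summit in trunk osteoblast replicate 1, 893 in replicate 2 and 645 in replicate 3. The third replicate, with the longest trunk osteoblast list, thus kept the fewest.

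In other groups a kept summit was allowed in 1 library at most, and 537 regions (52.8%) had none in any of the other 9 libraries. A further 335 had a kept summit in 1 other library, 122 in 2 and 24 in 3. By library the regions with a kept summit numbered 149, 93 and 90 in head osteoblast replicates 1, 2 and 3, then 50, 38 and 137 in trunk chondrocyte replicates 1, 2 and 3, and 17, 23 and 54 in head chondrocyte replicates 1, 2 and 3. Head osteoblast replicate 1 and trunk chondrocyte replicate 3, which had the shortest lists of their groups, kept the most.

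**Figure D1:**
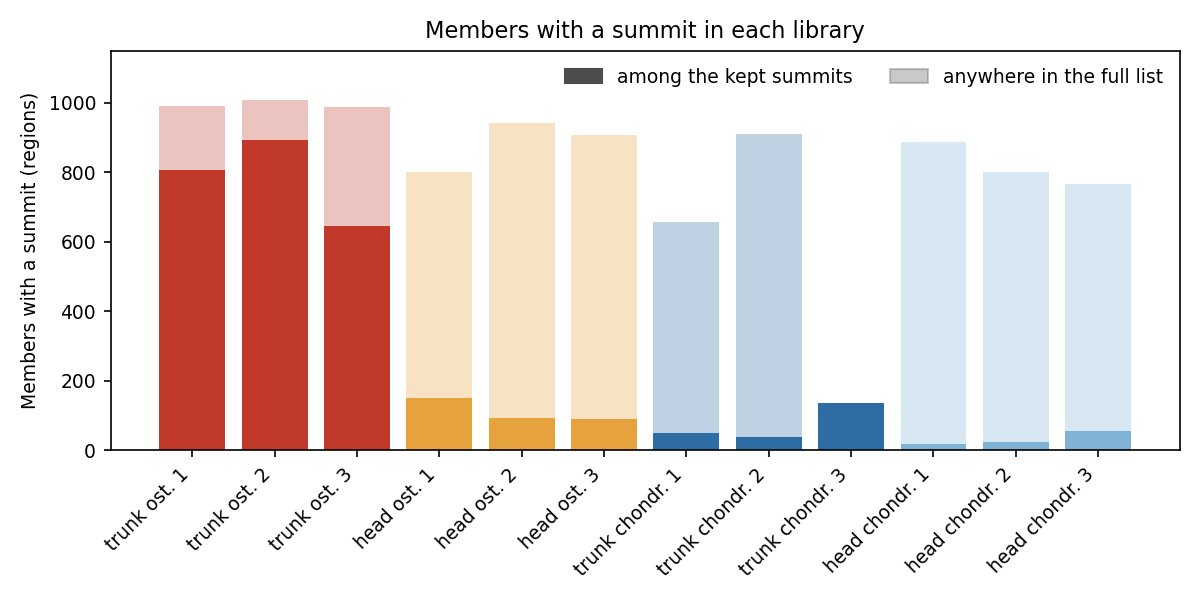
Number of the 1018 regions with a summit among the 8407 kept summits (solid bars) and anywhere in the full list (pale bars), for each library, coloured by group. Kept summits were found for 645 to 893 regions in trunk osteoblasts and for 17 to 149 elsewhere, while full lists held a summit for 658 to 943 regions in every other library except trunk chondrocyte replicate 3, whose full list is the kept list.

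The regions were rarely absent from the full lists of the other groups. With full lists, 918 regions (90.2%) had a summit in at least 2 head osteoblast libraries, 654 (64.2%) in at least 2 trunk chondrocyte libraries and 832 (81.7%) in at least 2 head chondrocyte libraries. The trunk chondrocyte count is held down by replicate 3, whose full list is no longer than its kept list. A summit was present in 7 or more of the other 9 libraries for 692 regions (68.0%) and in 2 or fewer for 52 (5.11%). Only 9 regions (0.884%) had none in any of the 9. The word alone therefore describes rank within lists of equal length, and not absence of a peak from other cells.

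The ranks show how far the groups stood apart. The median rank of the regions that had a summit was 6457, 6424 and 7568 in trunk osteoblast replicates 1, 2 and 3, close to the limit of 8407. It was 11644, 12621 and 13772 in head osteoblast replicates 1, 2 and 3, and 14103 and 17931 in trunk chondrocyte replicates 1 and 2. In head chondrocytes it was 20813, 19496 and 17243 in replicates 1, 2 and 3. Trunk chondrocyte replicate 3 had a summit in 137 regions, with a median rank of 5260 in a list that ends at the limit.

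**Figure D2:**
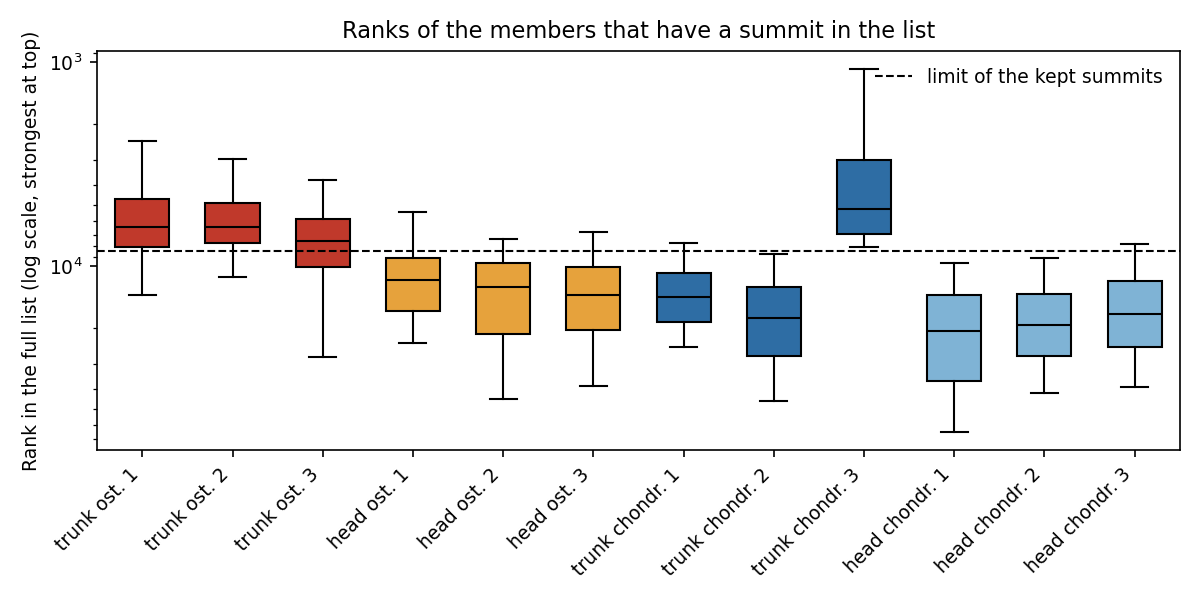
Rank of each region's best summit in the full list of each library, on a log axis with the strongest summit at the top. Boxes give the quartiles with the median as a line, whiskers the 5th and 95th percentiles, and the dashed line the limit of 8407. Medians lie above the limit in the 3 trunk osteoblast libraries and below it in the others apart from trunk chondrocyte replicate 3, whose list ends there.

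The rank that decides holding is the second best among the 3 libraries of a group. It had a median of 6807 in trunk osteoblasts, with quartiles at 5587 and 7636, and a median of 12056 in the next group, the other group with the lowest second best rank. The ratio of the next group's rank to that of trunk osteoblasts had a median of 2.02, reached 1.5 in 752 regions (73.9%) and reached 4 in 163 (16%). These 163 include 44 regions (4.32%) in which no other group had a summit in 2 libraries. The next group was head osteoblasts for 632 regions (62.1%), trunk chondrocytes for 197 (19.4%) and head chondrocytes for 145 (14.2%). When each list was extended to 20380 summits, which leaves out trunk chondrocyte replicate 3, a summit was present in 95.5% ± 4.5 of the regions in trunk osteoblasts (SD, n = 3), in 67.4% ± 1.1 in head osteoblasts (SD, n = 3) and in 43.1% ± 2.0 in head chondrocytes (SD, n = 3). The 2 remaining trunk chondrocyte libraries held 53.2% and 52.4%. By these values head osteoblasts stood nearest to trunk osteoblasts in these regions, and head chondrocytes farthest. The order of the chondrocyte groups depended on the lists. With full lists, 832 regions had a summit in at least 2 head chondrocyte libraries and 654 in at least 2 trunk chondrocyte libraries. The full list of trunk chondrocyte replicate 3 ends at 8407 summits and held 137 of the regions. For most regions both other trunk chondrocyte libraries thus had to hold a summit, so these counts are not alike. The same limit bears on the second best rank of trunk chondrocytes and on how often they were the next group. The ranks used here also chose the regions, and other held regions were not set beside them.

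**Figure D3:**
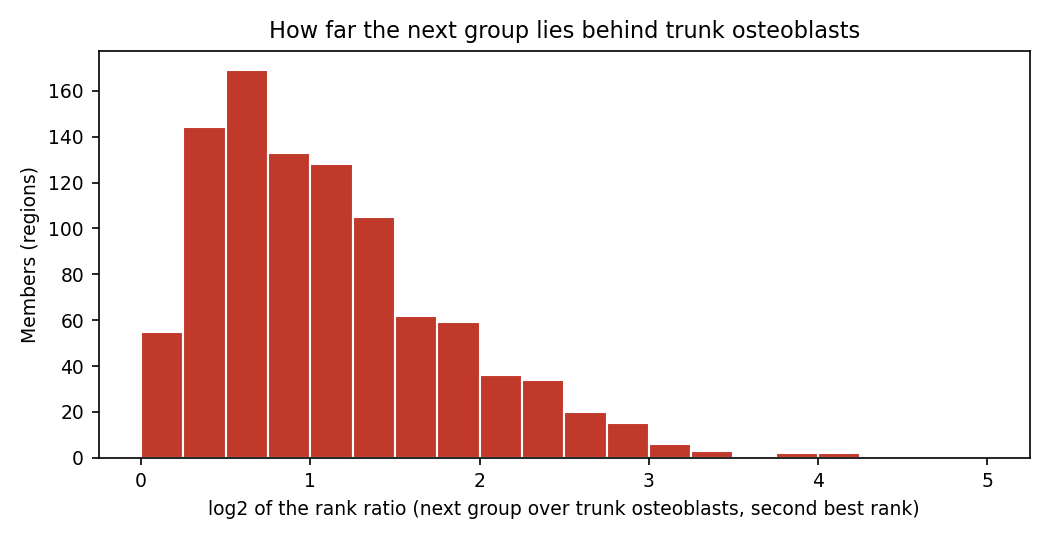
Histogram of the log2 ratio of the second best rank in the next group to that in trunk osteoblasts, for the regions in which another group had a summit in at least 2 libraries, all but 44 of the 1018. Values just above 0 are regions that another group nearly held, and the median over all 1018 regions is a ratio of 2.02.

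Just inside the limit lay chromosome 21, 9822401 to 9822549 (GRCz11), with ranks of 8385, 8407 and 9765 in trunk osteoblast replicates 1, 2 and 3 and no better rank than 25864 in any other library. Chromosome 2, 21808793 to 21808882, had ranks of 10134, 8175 and 8402 in trunk osteoblast replicates 1, 2 and 3, against 15133, 8358 and 12552 in head osteoblast replicates 1, 2 and 3. Just outside lay chromosome 11, 8533375 to 8533555, which ranked 8424 and 6438 in trunk osteoblast replicates 2 and 3, had no summit in replicate 1 and ranked 8076, 10032 and 22956 in head osteoblast replicates 1, 2 and 3. Chromosome 4, 12966605 to 12966674, ranked 7277, 7468 and 12167 in trunk osteoblast replicates 1, 2 and 3 and was left out because head osteoblast replicates 1 and 3 ranked it 7942 and 8404. These regions were picked for a deciding rank close to the limit, so their small differences in that rank follow from the choice. Their ranks in other libraries were not always alike.

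The strongest region kept in all 3 trunk osteoblast libraries was chromosome 21, 6466402 to 6466506, with ranks of 1261, 1568 and 3100 in replicates 1, 2 and 3. No head osteoblast list held a summit in it. Trunk chondrocyte replicates 1 and 2 ranked it 23245 and 42474, and head chondrocyte replicates 1 and 2 ranked it 18525 and 21883. A region held by another group lay 324 bp away, so summits that shift within one open stretch cannot be told apart from separate stretches there. The same holds for chromosome 7, 60389217 to 60389261, which ranked 1260, 2038 and 4069 in trunk osteoblast replicates 1, 2 and 3 and 5981 in head osteoblast replicate 1, with a region held by another group 279 bp away.

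Other strong regions stood farther from those of other groups. Chromosome 20, 48657061 to 48657141, ranked 2547, 2725 and 3320 in trunk osteoblast replicates 1, 2 and 3. In head osteoblasts it had no summit in replicate 1 and ranked 43899 and 28012 in replicates 2 and 3, and the closest region held by another group was 229230 bp away. Chromosome 2, 28150995 to 28151186, ranked 3415, 2508 and 2755 in trunk osteoblast replicates 1, 2 and 3. In head osteoblasts it had no summit in replicate 1 and ranked 43211 and 22663 in replicates 2 and 3, and its closest region of another group was 157865 bp away. Chromosome 20, 45289196 to 45289259, ranked 2158, 3098 and 3409 in trunk osteoblast replicates 1, 2 and 3, against 26913 and 43469 in head osteoblast replicates 2 and 3. Its next best value was in the trunk, a rank of 9577 in trunk chondrocyte replicate 2. In these 3 regions every trunk osteoblast library ranked ahead of all 9 other libraries, counting a library with no summit as behind. This follows from their being kept in all 3 trunk osteoblast libraries and in no other library, as 165 regions (16.2%) were.

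A smaller gap to the head osteoblasts was seen in other strong regions. Chromosome 16, 27015640 to 27015704, ranked 2828, 1912 and 2201 in trunk osteoblast replicates 1, 2 and 3, against 20410, 13658 and 16082 in head osteoblast replicates 1, 2 and 3. Chromosome 14, 39604949 to 39605298, ranked 1242, 3188 and 2692 in trunk osteoblast replicates 1, 2 and 3, against 9447, 11903 and 7973 in head osteoblast replicates 1, 2 and 3, the last of which was a kept summit. Chromosome 20, 15526970 to 15527118, ranked 2021, 2091 and 3851 in trunk osteoblast replicates 1, 2 and 3, against 12281, 13952 and 10783 in head osteoblast replicates 1, 2 and 3. Chromosome 7, 68394227 to 68394323, ranked 2433, 1843 and 3757 in trunk osteoblast replicates 1, 2 and 3, against 10196, 11906 and 8702 in head osteoblast replicates 1, 2 and 3. The ranges of both osteoblast groups did not overlap in any of these 4 regions. Their choice for low trunk ranks favours this, as does the rule, so nothing is concluded from it. Such ranges did overlap in the region on chromosome 2 from 21808793, and the share over all regions was not counted. Chromosome 17, 5223360 to 5224177, with 818 bp the widest of the 12 strongest, ranked 2931, 2452 and 2474 in trunk osteoblast replicates 1, 2 and 3 and had a summit in all 9 other libraries, the best at rank 8326 in trunk chondrocyte replicate 3.

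Of the 9 regions with no summit in any other library, 7 lay within 500 bp of a summit of another library. Chromosome 17, 26604647 to 26604657, the only one of the 8 strongest kept in all 3 trunk osteoblast libraries, ranked 5803, 5302 and 3935 in replicates 1, 2 and 3, and another library had a summit 301 bp away. Chromosome 3, 26075582 to 26075583, ranked 1634 and 2009 in trunk osteoblast replicates 1 and 3, with a region held by another group 265 bp away. Chromosome 10, 43179798 to 43179862, was the most isolated, with ranks of 8289, 6872 and 10031 in trunk osteoblast replicates 1, 2 and 3 and no summit of another library within 3618 bp. Chromosome 17, 42417103 to 42417255, ranked 8025, 7305 and 12034 in trunk osteoblast replicates 1, 2 and 3, with the closest summit of another library 779 bp away. A stricter set, kept in all 3 trunk osteoblast libraries and in no other library, held 165 regions (16.2%), of which 156 had no region held by another group within 1000 bp. Over these 165 the median rank ratio to the next group was 2.79, and head osteoblasts were the next group for 115.

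The regions lay on all 25 chromosomes, with 35 (3.44%) on unplaced sequences, against 2.24% of the regions held by at least 1 group. Per chromosome they made up between 4.4% (21 of 477 held regions, chromosome 1) and 10.7% (45 of 422, chromosome 14) of the held regions. Most stood apart from each other: 772 windows of 100 kb held 1, 79 held 2, and 15 held 3 or more.

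The windows with the most regions shared an unusual distribution over libraries. On chromosome 2, the window from 19400001 to 19500000 held 7, spread over 48041 bp, of 9 held regions in all. All 7 were kept in trunk osteoblast replicates 1 and 2 and none in replicate 3, while head osteoblast replicate 1 kept 6, trunk chondrocyte replicate 3 kept 4, and trunk chondrocyte replicate 1 and head chondrocyte replicate 3 kept 1 each. One of them, 19474458 to 19474516, ranked 2424, 6437 and 27937 in trunk osteoblast replicates 1, 2 and 3, against 5343, 24427 and 21152 in head osteoblast replicates 1, 2 and 3 2244 in trunk chondrocyte replicate 3 and 7242 in head chondrocyte replicate 3. Trunk osteoblast replicate 3 thus ranked it behind all 3 head osteoblast libraries, and the strong ranks followed libraries more than groups. Chromosome 10 had a window with 5 regions, 16800001 to 16900000, chromosome 4 one with 4, 28500001 to 28600000, and chromosome 11 one with 4, 15100001 to 15200000. All of them were kept in trunk osteoblast replicates 1 and 2 and none in replicate 3, and head osteoblast replicate 1 kept 4, 4 and 3 of them in that order of windows. The window on chromosome 2 from 34000001 to 34100000 differed: its 3 regions were kept in 2, 2 and 3 cases in trunk osteoblast replicates 1, 2 and 3 and in no other library.

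**Figure D4:**
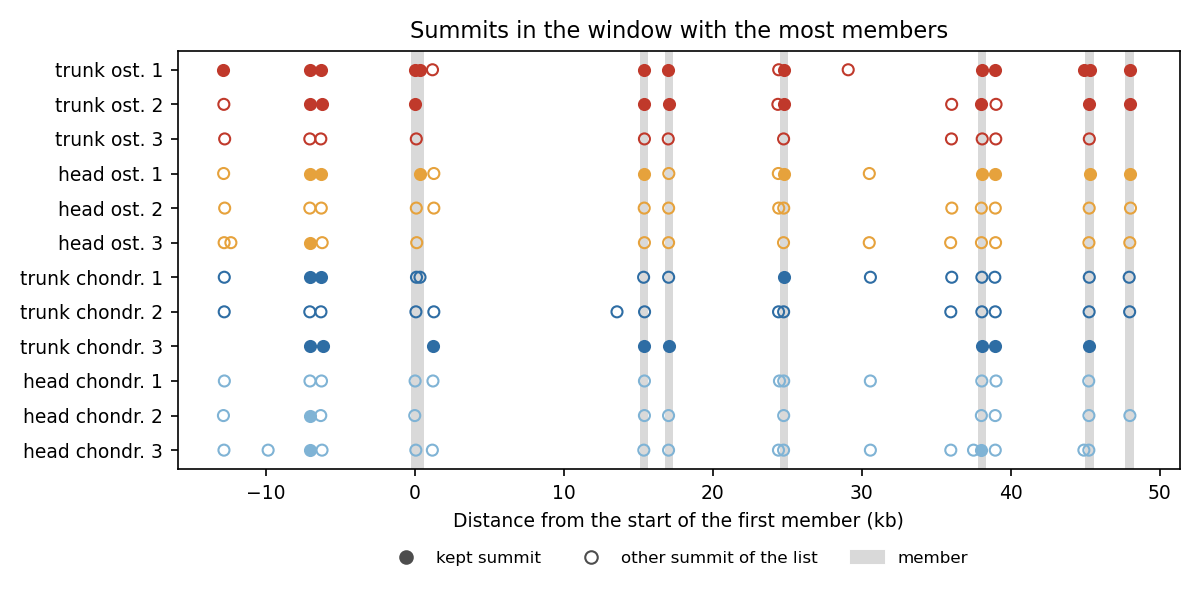
Summits of each library in the 100 kb window with the most regions, as distance in kb from the start of the first of its 7 regions. Filled points are kept summits, open points the other summits of the list, and grey bands the regions. The bands are filled in trunk osteoblast replicates 1 and 2, mostly also in head osteoblast replicate 1 and in part in trunk chondrocyte replicate 3, and open in trunk osteoblast replicate 3.

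These libraries are among those with the shortest lists. Of the 373 regions kept in trunk osteoblast replicates 1 and 2 and not in 3, 134 (35.9%) were also kept in head osteoblast replicate 1 or trunk chondrocyte replicate 3. Of the 125 kept in replicates 1 and 3 and not in 2, 29 (23.2%) were, of the 310 kept in all 3, 49 (15.8%), and of the 210 kept in replicates 2 and 3 and not in 1, 24 (11.4%). The share was thus highest for regions that replicate 3 did not keep, and lower for the other 3 kinds. Both libraries counted here were those of their groups that kept the most of the 1018. Trunk chondrocyte replicate 1 has a shorter list than head osteoblast replicate 1, with 27334 against 28911 summits. It showed no such rise and kept 4.83% of the 373 regions, 4% of the 125, 5.16% of the 310 and 5.24% of the 210. The part of list length in the choice of regions was not tested. Without trunk osteoblast replicate 3 the rule gave 683 regions, without replicate 1 it gave 520 and without replicate 2 it gave 435. With 2 trunk osteoblast libraries left both must hold a region, so these counts could only fall. From the 9 libraries labelled without file loss the rule gave 707, of which 520 were among the 1018.

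To measure the regions in libraries that did not choose them, the rule was applied without 1 replicate number of every group. Without replicate 1 it gave 743 regions, of which left-out trunk osteoblast replicate 1 kept 61.5% (exact 95% interval 57.9 to 65.0%, for counting error only), against 26.1% in head osteoblast, 17.1% in trunk chondrocyte and 8.21% in head chondrocyte replicate 1. Without replicate 2 it gave 741, of which trunk osteoblast replicate 2 kept 70.9% (67.4 to 74.1%), against 40.1%, 17.3% and 9.72% in the left-out libraries of head osteoblasts, trunk chondrocytes and head chondrocytes. Without replicate 3 it gave 1006, of which trunk osteoblast replicate 3 kept 46.5% (43.4 to 49.7%), against 29.0%, 26.5% and 17.8% in the same order of groups. In each case the left-out trunk osteoblast library kept the largest share. Over all 133213 regions the libraries were alike, with kept summits in 8284 (trunk chondrocyte replicate 3) to 8406 regions each. The share of the other held regions that each left-out library kept is not given here. By the rule, no other group had a kept summit of these regions in both of its remaining libraries. This favours low shares in the left-out libraries of those groups.

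Ranks could be compared without a limit. Left-out trunk osteoblast replicate 1 ranked ahead of head osteoblast replicate 1 in 74.6% of the regions chosen without them, against 40.0% of the other held regions. For replicate 2 these shares were 69.1% against 39.8%, and for replicate 3 they were 59.9% against 45.8%. The margin over head osteoblasts was smallest in replicate 3. The other held regions include those that another group alone held, which the same rule chose against trunk osteoblasts. They are thus not a neutral background. Left-out trunk osteoblast libraries ranked ahead of head chondrocytes in 86.5%, 90.1% and 67.7% of the regions for replicates 1, 2 and 3, against 47.1%, 51.1% and 47.3% of the other held regions. They ranked ahead of trunk chondrocytes in 83.0%, 83.5% and 74.5% for replicates 1, 2 and 3, against 49.4%, 52.5% and 61.3% of the other held regions. In replicate 3 the share was higher against trunk than against head chondrocytes, the reverse of the other replicates, and trunk chondrocyte replicate 3 has the list that ends at the limit. Regions held alone by head osteoblasts, chosen the same way, were kept by the left-out library of their own group in 69.0% to 77.2% of cases, those of head chondrocytes in 65.4% to 82.5% and those of trunk chondrocytes in 42.3% to 74.3%. The lowest shares of trunk osteoblasts, trunk chondrocytes and head chondrocytes were all in replicate 3.

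**Figure D5:**
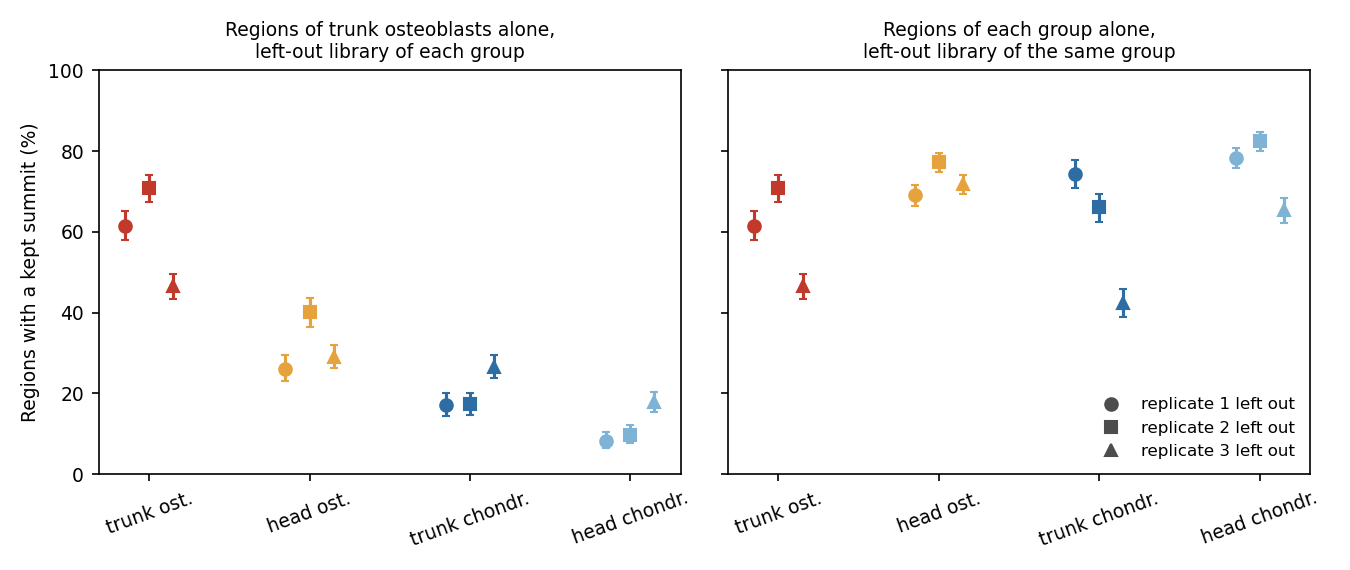
Share of regions with a kept summit in libraries that did not take part in choosing them, with exact 95% intervals that cover counting error only. Left, regions of trunk osteoblasts alone in the left-out library of each group, with 46.5% to 70.9% in trunk osteoblasts and 8.21% to 40.1% in the others; right, regions of each group alone in the left-out library of the same group.

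The trunk osteoblast regions were set beside the 1469 regions held by head osteoblasts alone, the 942 of trunk chondrocytes alone and the 990 of head chondrocytes alone. They were similar in median width, and less so in other values. Their median width was 102 bp, against 96, 102 and 93 bp in that order of groups, and 82 bp over all held regions. A kept summit in all 3 libraries of the group was found for 30.5% of them, against 41.9%, 30.3% and 44.5%. A region of the same kind lay within 10 kb of 94 trunk osteoblast regions (9.23%), against 8.17%, 5.84% and 4.14%. A region held by all 4 groups lay within 10 kb of 14.8% of them, against 12.5%, 14.4% and 11%. These values are descriptions of the 4 kinds of region and their differences were not tested. Shares within 10 kb were not adjusted for the number of regions of each kind.

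The surroundings of the regions were compared after the regions themselves had been left out. Kept summits outside the regions and 1 to 50 kb from one made up 14.3%, 14.8% and 14.4% of such summits in trunk osteoblast replicates 1, 2 and 3, against 13.1% to 14.2% in the other 9 libraries. The mean share was 14.5% ± 0.26 in trunk osteoblasts (SD, n = 3) and 13.7% ± 0.37 in the other libraries (SD, n = 9). The difference was 0.83 percentage points, and the ranges of the shares did not overlap. In number, the near summits were 1089 of 7595, 1112 of 7513 and 1115 of 7762 in trunk osteoblast replicates 1, 2 and 3. The other libraries had 1092 to 1186, of 8256 to 8390. The higher share thus went with a smaller total and not with a higher count, since more trunk osteoblast summits lay in the regions left out. The same libraries chose the regions, so the difference carries no test. With regions chosen without the replicate measured, the share in the left-out trunk osteoblast library was 0.868 and 0.743 percentage points higher than the mean of the left-out other libraries for replicates 2 and 3, whereas for replicate 1 the difference was -0.169 percentage points. The higher share near the regions thus did not hold in every replicate.

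The surroundings were also compared in windows of 100 kb. The kept summits counted there also chose the 1018, so the counts are not independent of that choice. The number of kept regions per window, with the 1018 left out, was compared between groups with limma on log2(regions + 0.5) in 2913 windows, of which 409 held at least 1 of the 1018. Against the mean of the other 3 groups, 10 of the 409 windows (2.44%) were higher and 30 (7.33%) lower in trunk osteoblasts at a limma adjusted p below 0.05, where 1.58% and 6.56% of all windows were. Against head osteoblasts, 3 (0.733%) were higher and 2 (0.489%) lower, where 0.687% and 0.79% of all windows were. Against trunk chondrocytes, 29 (7.09%) were higher and 48 (11.7%) lower, where 5.84% and 11% of all windows were. Against head chondrocytes, 41 (10.0%) were higher and 45 (11%) lower, where 5.29% and 11.5% of all windows were. Against the mean and against trunk chondrocytes, the share of higher windows around the regions was only a little above that of all windows in this fit. The gap was widest against head chondrocytes. All windows include the 409. Against head osteoblasts both shares were nearly equal. With replicate number as a block in the model, 0.244% of the windows around the regions were higher than in head osteoblasts, where 0.549% of all windows were. Whether these shares differ was not tested. Leaving out the 1018 lowers the trunk osteoblast count in exactly these windows. Counting them raises it, and gave 95 higher and 5 lower of 512 against the mean of the other groups. Neither count is free of the choice of regions, so nothing about the surroundings is concluded from these shares. The counts against that mean depended on the libraries, the lists and the windows used. Without trunk osteoblast replicate 2, 5 of 402 windows around the regions (1.24%) were higher and 21 (5.22%) lower, where 0.453% and 4.67% of all windows were. Without replicate 1, 6 of 394 (1.52%) were higher and 23 (5.84%) lower, where 0.665% and 5.5% of all windows were. With full lists and list length as a covariate, 10 of 839 (1.19%) were higher and 2 (0.238%) lower, where 0.267% and 0.704% of all windows were. That fit also gave 34 (4.05%) higher and 9 (1.07%) lower than in trunk chondrocytes, where 1.31% and 2.03% of all windows were.

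The window around the strongest region, chromosome 21 from 6400001 to 6500000, had the smallest p among windows with such a region that were higher in trunk osteoblasts. Without that region it held 4, 5 and 5 kept regions in trunk osteoblast replicates 1, 2 and 3, against 7, 6 and 5 in head osteoblasts and 0 in all 6 chondrocyte libraries. The log2 difference of trunk osteoblasts from the mean of the other groups was 2.13 ± 0.16 (SE; limma adjusted p = 1.47e-05). Apart from the region itself, this window held kept regions in every osteoblast library and in no chondrocyte library. On chromosome 25, the window from 17100001 to 17200000 likewise held 3, 2 and 2 regions in trunk osteoblasts, against 2 in each head osteoblast and 0 in each chondrocyte library (log2 difference 1.71 ± 0.28 SE, limma adjusted p = 0.00256). Another on chromosome 25, from 900001 to 1000000, held 2 of the 1018 and, without them, 6, 4 and 4 regions in trunk osteoblasts, against 3 in each head osteoblast library, 3, 2 and 3 in trunk chondrocytes and 2 in each head chondrocyte library (log2 difference 0.76 ± 0.15 SE, limma adjusted p = 0.00794). Here the trunk osteoblasts stood above all 9 other libraries, but without trunk osteoblast replicate 1 the log2 difference was 0.58 and missed the threshold.

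Some regions of trunk osteoblasts alone lay in windows where trunk osteoblasts otherwise kept fewer regions. The window on chromosome 2 from 25400001 to 25500000 held none besides the 1 in question in the trunk and head osteoblast libraries, against 5, 4 and 5 in trunk chondrocytes and 4, 4 and 3 in head chondrocytes (log2 difference -2.14 ± 0.18 SE, limma adjusted p = 3.09e-05). On chromosome 16, the window from 7000001 to 7100000 held 2, 2 and 3 regions in trunk osteoblasts, against 4, 4 and 3 in head osteoblasts and 7 in every chondrocyte library (log2 difference -1.14 ± 0.13 SE, limma adjusted p = 0.000187). On chromosome 11, the window from 44700001 to 44800000 held 2, 3 and 3 in trunk osteoblasts, against 8, 6 and 5 in head osteoblasts, 5 in every trunk chondrocyte library and 6, 8 and 5 in head chondrocytes (log2 difference -1.01 ± 0.16 SE, limma adjusted p = 0.00256). In that last window the trunk osteoblasts stood below all 9 other libraries, although it held 1 region that they alone held. Leaving out the 1018 lowers the trunk osteoblast count in such windows and so favours these deficits. These deficits were smaller when the 1018 were counted: the log2 difference was then -1.11 on chromosome 2 (limma adjusted p = 0.0345), -0.89 on chromosome 16 (limma adjusted p = 0.00598) and -0.77 on chromosome 11 (limma adjusted p = 0.0301). With full lists and list length as a covariate, none of the 10 named windows, the 5 with the smallest p in each direction, passed the threshold (limma adjusted p between 0.0865 and 0.929), and the difference in the window on chromosome 11 was 0.12.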

How the data were processed

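The submitters' processing notes name MACS2, Bowtie2, fastp, SAMtools, deepTools and bedtools, and the danRer11 build (GRCz11), with versions and settings not given in the sources used here. Every library has its own deposited summit list, so peak calling was done library by library. The deposited scores are −log10 p-values or −log10 q-values, and no label or header says which. Scores were used to rank summits within a list, because they grow with depth. Per the labels' protocols, transposase amount and time were adjusted to cell number, so enzyme dose may vary between libraries. Groups and replicate numbers follow the titles, which call the libraries biological replicates; peak names inside 7 lists carry another number.

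Positions count from 1. Ties in score were ordered by position. The members and lists were chosen with earlier results of these data known. Named regions follow rules: the 12 members with the lowest mean rank among those kept in all 3 trunk osteoblast libraries, the 8 lowest among those absent from all other lists, the nearest to the limit, the 5 windows with the most members and the 5 windows holding a member with the smallest p in each direction; not all are printed. The window model used limma 3.58.1 in R 4.3.3 (4 group means, trend and robust moderation, Benjamini-Hochberg at 0.05, a mean of 1 or more regions per window, 8 residual degrees of freedom). Windows with no spread within groups were left out, a choice made after the data were seen, because they gave very small p-values for differences of 1 region. On simulated data of trunk osteoblasts against the other groups, over 3262 windows, 4% of windows changed 2-fold and 54% of those changed 4-fold were recovered, with 3 false calls among 61. The simulated counts were random Poisson draws around each window's mean. Some real windows varied less, such as that on chromosome 16 with 7 regions in every chondrocyte library, so these rates need not hold for the data. A planned permutation test of the surroundings was replaced by values, since the same libraries chose the members. Planned sequence motifs and distances to genes were not analysed here. Python 3.11.15, numpy 2.4.6, pandas 2.3.3 and scipy 1.17.1 were used.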

Additional observations from a re-analysis of the deposited data

How the results depend on the processing

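The count of regions held by trunk osteoblasts alone depended on how many summits were kept and on how strictly presence and absence were required. It was 1018 at 8407 summits, 464 with lists at 50% of that length (99 shared with the 1018), 1587 with full lists (44 shared) and 2606 at 20380 summits without trunk chondrocyte replicate 3, an alternative chosen after seeing the data (214 shared). Requiring all 3 trunk osteoblast libraries gave 310, no kept summit in another library 537, none within 1000 bp 492, and none in any full list 9. Leaving out 1 library gave between 435 (without trunk osteoblast replicate 2) and 1306. By the rule the count can only fall without a trunk osteoblast library and only rise without a library of another group. Chaining at 100 and 500 bp gave 1050 and 957. The difference in the share of kept summits near the regions was 0.298 percentage points at 1 to 10 kb. It was 1.28 with full lists, 0.68 to 0.911 without 1 library, and -0.169 in left-out replicate 1. Full lists of the left-out trunk osteoblast libraries held 94.5%, 98.0% and 95.6% of the regions chosen without replicates 1, 2 and 3. In the same order, those of head osteoblasts held 82.5%, 95.5% and 90.0%, and those of head chondrocytes 90.7%, 82.7% and 83.0%. Those of trunk chondrocytes held 70.0%, 93.0% and 26.5%.

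In limma, 237 windows differed from the mean of the other groups, 43 from head osteoblasts, 490 from trunk chondrocytes and 490 from head chondrocytes. In that order, full lists with list length as covariate gave 91, 0 (782 at an unadjusted p below 0.05), 313 and 35, and the libraries labelled without file loss 108, 9, 219 and 316. With no filter on low windows there were 357 against the mean and 787 against head chondrocytes, and with the members counted 80 against head osteoblasts. Leaving out 1 library gave 147 to 251, 22 to 71, 337 to 472 and 273 to 500; the lowest came without trunk osteoblast replicate 2 (mean of the others), head osteoblast replicate 2 (head osteoblasts) and head chondrocyte replicate 1 (head chondrocytes, 278 without replicate 2), and 71 came without trunk osteoblast replicate 3. The replicate block gave 221, 34, 461 and 421. Including the windows with no spread within groups gave 309, 63, 430 and 433. The numbers of the titles showed no clear pairing, since 1 of 18 same-numbered pairs correlated above 0.1. The highest correlation was 0.191 among these and 0.204 among the 36 pairs with different numbers. Peak names in 7 lists carry another number, and a pairing by those numbers was not tested. Of the 10 named windows, full lists with list length as covariate turned the direction on chromosome 11 (44700001, 0.12) and on chromosome 13 (24900001, 0.080). The cause was not tested. Sequence motifs and gene distances were not analysed, so no alternatives were run for them.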
